A study of Mus musculus with 15 samples.

Results

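Described here are 4 mature mouse miRNAs in neural cultures: mmu-miR-219-5p and mmu-miR-338-3p, which are linked to oligodendrocytes, the myelin-forming glia, and mmu-miR-21-5p and mmu-miR-199a-3p, which are abundant in mesenchymal cells such as fibroblasts (the species prefix is left out below). They were chosen by name from the 1122 mouse miRNAs on the array, all 4 were present on it, and all 4 passed the filter on dim signals that 307 miRNAs passed, miR-199a-3p only through the treated cultures. The study differentiated epiblast stem cells (EpiSC), pluripotent cells of the kind found in the early embryo, that came from Pitx3-GFP mice, in which a green fluorescent reporter marks the dopaminergic neuron gene Pitx3. The 5 groups, with 3 arrays each, were cells at day 5 before any morphogen was given, cultures at day 9 and day 14 that received the morphogens SHH and FGF8 from day 5 (treated), and cultures at day 9 and day 14 grown without morphogens (control). All groups share the same reporter background, and the labels name no separate EpiSC lines, sorted fractions or replicate cultures, so the p-values measure only the spread between these arrays, which may be technical.

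MicroRNAs are short RNAs that lower the output of messenger RNAs by pairing with them, mainly through the seed, a short stretch near the 5′ end. In the developing brain and spinal cord, miR-219 and miR-338 rise as oligodendrocyte precursors mature, and they repress genes that keep the precursors immature. miR-21 is made by many cell types, including reactive glia and fibroblasts. miR-199a and its neighbour miR-214 are made from a shared transcript, Dnm3os, in mesenchyme.

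The mature sequences are shown because the array reads 1 arm of each hairpin, and the capitals mark the seed (bases 2 to 8), on which targeting mainly rests. They come from RefSeq (GRCm38.p6), where 2 of the miRNAs were found under the name used on the array and 2 through an older symbol of the hairpin, and are listed 5′ to 3′.
miR-219-5p: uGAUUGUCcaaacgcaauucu
miR-338-3p: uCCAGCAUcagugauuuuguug
miR-21-5p: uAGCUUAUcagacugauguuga
miR-199a-3p: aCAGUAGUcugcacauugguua
The 4 seeds are different, so no member shares a seed with another. miR-219-5p is encoded by 2 hairpins with an identical mature sequence, on the minus strand at chr17:34025052-34025072 (Mir219a-1) and on the minus strand at chr2:29845689-29845709 (Mir219a-2, within the span of Cercam), and the array cannot tell these copies apart. miR-338-3p lies on the minus strand at chr11:120014781-120014802, within the span of Aatk. miR-21-5p lies on the minus strand at chr11:86584120-86584141, within the span of Vmp1. miR-199a-3p is encoded on the plus strand at chr1:162217883-162217904 (Mir199a-2, within the spans of Dnm3 and Dnm3os) and on the minus strand at chr9:21496498-21496519 (Mir199a-1, within the span of Dnm2). The mature sequence of miR-199b-3p, from chromosome 2, is identical to that of miR-199a-3p, so a signal for miR-199a-3p cannot be assigned to any of these 3 hairpins.

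The hairpins show which other arm each precursor could release, and the annotated arms are in capitals. Their other arms are described with the results.
Mir219a-1: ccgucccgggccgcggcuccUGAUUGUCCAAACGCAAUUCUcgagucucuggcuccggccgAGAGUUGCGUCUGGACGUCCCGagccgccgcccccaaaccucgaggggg
Mir338: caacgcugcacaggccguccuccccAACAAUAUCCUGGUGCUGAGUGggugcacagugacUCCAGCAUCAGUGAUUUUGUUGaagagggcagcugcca
Mir21a: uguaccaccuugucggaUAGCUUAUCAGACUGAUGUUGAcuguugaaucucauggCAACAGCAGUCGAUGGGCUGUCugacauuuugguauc
Mir199a-2: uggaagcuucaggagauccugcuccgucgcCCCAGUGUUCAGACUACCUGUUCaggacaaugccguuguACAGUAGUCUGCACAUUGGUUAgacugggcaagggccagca
In Mir219a-1 and Mir21a the arm measured here is the first, in Mir338 and Mir199a-2 it is the second.

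Levels are given as scaled signal, which is the background-subtracted intensity divided by the array's own 75th percentile over the 354 probes above background on all 15 arrays, on the log2 scale. The divisor ran from 149 to 336 intensity units, 239 to 333 mouse miRNAs were above background per array, and replicates correlated at 0.980 to 0.998 across the tested miRNAs. The arrays lay on 2 slides. Slide 1 held day 5, treated day 9 and treated day 14 replicates 1 and 2, and slide 2 held treated day 14 replicate 3 and all controls. The labelling spike-in read 2.71 to 2.86 (log10) on slide 2 and 2.97 to 3.11 on slide 1. At day 9 no slide held both treated and control arrays, so a fit with slide as a term separates slide from treatment there only through the treated day 14 arrays. In such bulk cultures fewer cells of a type and less RNA per cell cannot be told apart.

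**Figure D1:**
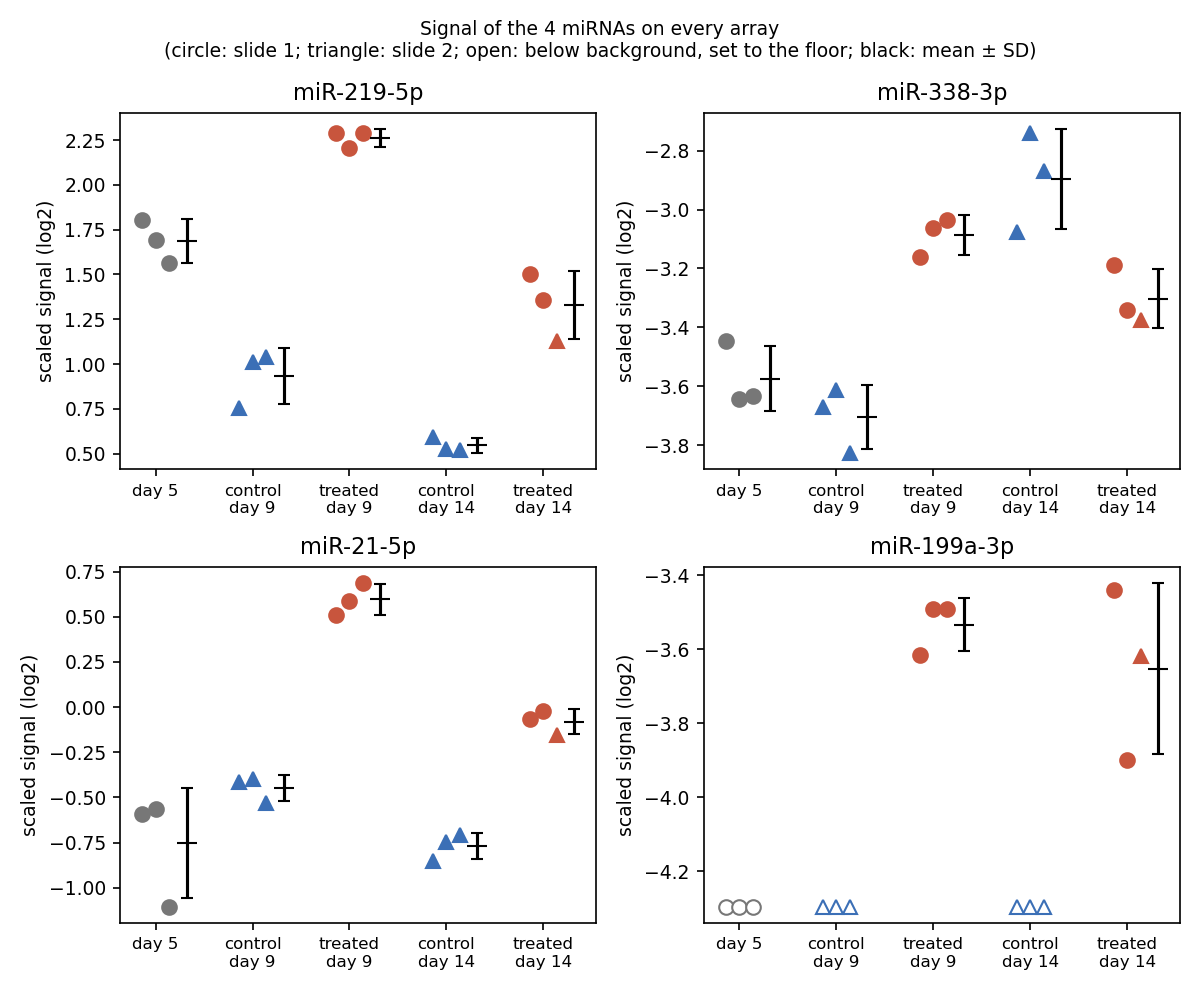
Scaled signal (log2, vertical axis) of each of the 4 miRNAs on every array in the 5 groups, with circles for slide 1, triangles for slide 2, open symbols for arrays below background (drawn at the floor) and black bars for the group mean ± SD (n = 3). miR-219-5p and miR-21-5p were highest in treated day 9 cultures, miR-338-3p was highest in control day 14 cultures, and miR-199a-3p was above background on the 6 treated arrays only.

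With SHH and FGF8, miR-219-5p was 2.51-fold higher than in controls at day 9 and 1.72-fold higher at day 14. miR-338-3p, its usual companion in oligodendrocytes, was 1.53-fold higher at day 9 but 1.32-fold lower at day 14. Both miR-338-3p values rest on 1 probe close to the detection limit and depended on the processing, as described below. miR-21-5p was 2.06-fold and 1.61-fold higher at the same days. miR-199a-3p was above background in all 6 treated arrays and in none of the 9 other arrays. With the scaling above, its brighter probe was at least 1.58-fold higher than control at day 9 and at least 1.498-fold at day 14. The 6 differences of miR-219-5p, miR-338-3p and miR-21-5p were called (adjusted p under 0.05, limma, Benjamini-Hochberg over 307 miRNAs), beside 56.0% of all tested miRNAs called in either direction at day 9 and 53.4% at day 14. Treated and control arrays did not overlap in any of these 6, as was the case for 71.0% of all tested miRNAs at day 9 and 56.0% at day 14. With calls this common, a call alone does not set these miRNAs apart. miR-199a-3p passed the filter only through the treated cultures in which it is high, so its differences are given as a description, with no test.

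miR-219-5p was measured well above background throughout. Every spot of both its probes was above background on all 15 arrays, and its brighter probe read 308 to 1334 intensity units. On the day 5 arrays its scaled signal was 1.81, 1.69 and 1.56 (log2), so it was present before any morphogen was given. In treated cultures it was 2.29, 2.21 and 2.29 at day 9 and 1.503, 1.36 and 1.13 at day 14. In control cultures it was 0.75, 1.01 and 1.04 at day 9 and 0.59, 0.53 and 0.52 at day 14. All treated arrays lay above all control arrays of the same day, and the order of the group means was treated day 9, day 5, treated day 14, control day 9 and control day 14, with no overlap between neighbours in that order.

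At day 9, mean scaled miR-219-5p was 2.26 ± 0.05 (SD, n = 3) in treated and 0.93 ± 0.16 in control cultures, a log2 difference of 1.33 (SE 0.10, adjusted p = 1.4e-07, limma). At day 14 the means were 1.33 ± 0.19 and 0.55 ± 0.04, a log2 difference of 0.78 (SE 0.10, adjusted p = 3.0e-05, limma). Its other probe gave log2 differences of 1.34 and 0.87. Among the 307 tested miRNAs the day 9 increase ranked 19 from the top, and the day 14 increase ranked 34. With slide as a fixed term the log2 differences were 1.02 (adjusted p = 0.00049) at day 9 and 0.58 (adjusted p = 0.0036) at day 14; on slide 2 alone the day 14 value, 0.58, sets 1 treated array against 3 controls. The treated day 14 array on slide 2 read 0.30 below the mean of the pair on slide 1.

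Over time, miR-219-5p fell in both arms after day 9. From day 5 to day 9 it rose by 0.58 (log2, SE 0.10, adjusted p = 0.00023, limma) in treated cultures and fell by 0.75 (adjusted p = 2.3e-05) in controls. From day 9 to day 14 it fell by 0.93 (adjusted p = 2.2e-06) in treated and by 0.39 (adjusted p = 0.0051) in control cultures, each of which can be read within a slide, with a fall of 0.83 on slide 1 for the treated arrays. The control change from day 5 to day 9 was across slides, and with slide as a fixed term it fell by 0.45 (adjusted p = 0.048). Changes over time were as common among all tested miRNAs. For treated day 9 against day 5, 59.0% were called (37.8% higher and 21.2% lower) and 61.9% had no overlap between groups. For treated day 14 against day 9 these shares were 67.1% (35.8% higher and 31.3% lower) and 76.2%. For control day 9 against day 5 they were 59.0% (23.8% higher and 35.2% lower) and 57.7%, and for control day 14 against day 9 they were 54.7% (31.3% higher and 23.5% lower) and 58.6%.

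miR-338-3p was close to the detection limit, and it did not follow miR-219-5p. Its brighter probe read 12.0 to 36.5 intensity units, with 50% to 100% of its 20 spots above background, and its dimmer probe had at most 15% of spots above background on any array, so all values rest on 1 probe. At day 5 its scaled signal was -3.45, -3.64 and -3.63 (log2). In treated cultures it was -3.16, -3.06 and -3.03 at day 9 and -3.19, -3.34 and -3.38 at day 14. In controls it was -3.67, -3.61 and -3.83 at day 9 and -3.08, -2.74 and -2.87 at day 14. At day 9 all treated arrays lay above all controls, and at day 14 all treated arrays lay below all controls.

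The mean scaled miR-338-3p at day 9 was -3.09 ± 0.07 (SD, n = 3) in treated and -3.70 ± 0.11 in control cultures, a log2 difference of 0.62 (SE 0.10, adjusted p = 9.3e-05, limma). At day 14 the means were -3.30 ± 0.10 and -2.90 ± 0.17, a log2 difference of -0.41 (SE 0.10, adjusted p = 0.0028, limma). The day 9 difference depended on the scaling: it was 0.04 (adjusted p = 0.80) when the percentile was taken over all mouse probes and 0.12 (adjusted p = 0.23) after quantile normalization, and with slide as a fixed term it was 0.51 (adjusted p = 0.053). The day 14 difference was called under each of the 4 scalings, at -0.81 to -0.41, but not after normexp background correction (-0.23, adjusted p = 0.26), which also ended the call of the interaction (-0.43). Before scaling, the day 9 intensities of the brighter probe were 24.2 to 34.6 in treated and 16.9 to 21.8 in control cultures, and the day 14 intensities, 26.1 to 34.5 and 32.02 to 36.5, overlapped.

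The treatment difference in miR-338-3p changed by -1.02 (log2, SE 0.14) from day 9 to day 14 (adjusted p = 9.9e-05 for the interaction of treatment and day, limma). For this interaction 33.2% of tested miRNAs were called, 17.3% upward and 16.0% downward, and miR-338-3p ranked 16 of 307 by size. With the scaling described above, the change came mainly in the control arm. There miR-338-3p rose by 0.81 (adjusted p = 6.1e-06, limma) from day 9 to day 14, all on slide 2. Of all tested miRNAs 31.3% were called higher there. After normexp background correction this control rise was 0.22 and not called (adjusted p = 0.27, limma). In treated cultures miR-338-3p rose by 0.49 (adjusted p = 0.00054) from day 5 to day 9, all on slide 1. That call was lost after normexp background correction (0.011, adjusted p = 0.96) and on the scanner software's total signal (0.33, adjusted p = 0.11). The treated change from day 9 to day 14, -0.22, was not called (adjusted p = 0.063). Under median scaling this treated change was -0.43 and called (adjusted p = 0.0027, limma), beside a control rise of 0.52. After quantile normalization it was -0.19 and called (adjusted p = 0.045, limma), beside a control rise of 0.74. The share of each arm in the interaction thus depended on the scaling. The interaction was also called for miR-219-5p (-0.54, SE 0.14, adjusted p = 0.010), though not with the percentile over all mouse probes (-0.34, adjusted p = 0.13) or with no filter on dim miRNAs (adjusted p = 0.056). In order of level, control day 14 and treated day 9 overlapped for miR-338-3p, as did day 5 and control day 9.

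**Figure D2:**
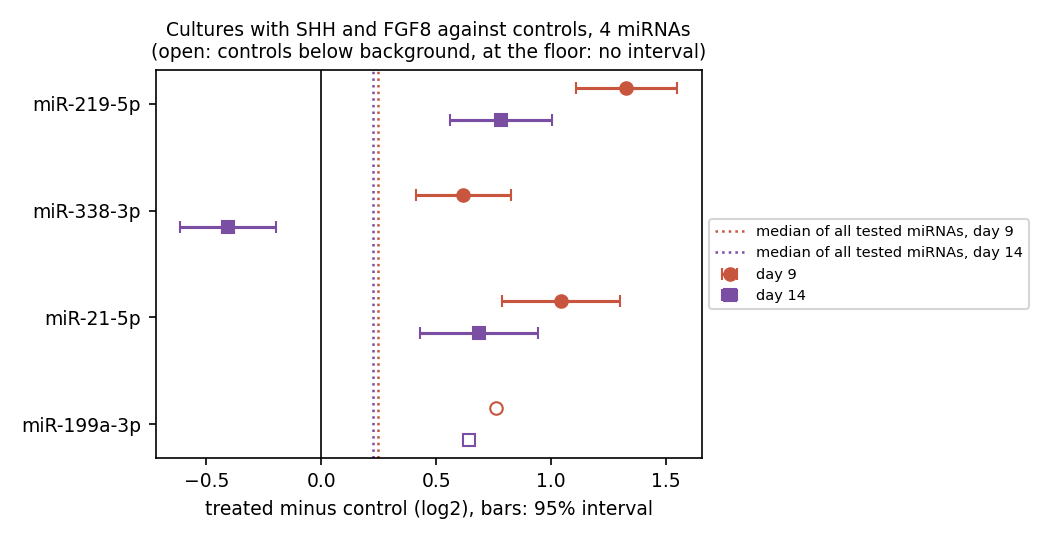
Treated minus control on the log2 scale (horizontal axis) for each miRNA at day 9 (circles) and day 14 (squares), with bars for the 95% interval from limma (none for miR-199a-3p) and dotted lines for the median of all 307 tested miRNAs (0.25 at day 9 and 0.23 at day 14). miR-338-3p lies at 0.62 at day 9 and at -0.41 at day 14, and the points of miR-199a-3p are open because its controls were below background.

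miR-21-5p was above background in every spot of both probes on all 15 arrays, with 69.3 to 435 intensity units on the brighter probe. At day 5 its scaled signal was -0.59, -0.56 and -1.10 (log2), the third array being lower than the other two. In treated cultures it was 0.51, 0.59 and 0.69 at day 9 and -0.06, -0.02 and -0.16 at day 14. In control cultures it was -0.41, -0.40 and -0.53 at day 9 and -0.85, -0.74 and -0.71 at day 14. All treated arrays lay above all other arrays, while day 5 and control day 14 overlapped.

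The mean scaled miR-21-5p at day 9 was 0.60 ± 0.09 (SD, n = 3) in treated and -0.45 ± 0.07 in control cultures, a log2 difference of 1.04 (SE 0.12, adjusted p = 6.5e-06, limma). At day 14 the means were -0.08 ± 0.07 and -0.77 ± 0.07, a log2 difference of 0.69 (SE 0.12, adjusted p = 0.00031, limma). The other probe gave 1.22 and 0.82. The day 14 call was lost, at 0.31 (adjusted p = 0.10), with the percentile over all mouse probes. With slide as a fixed term the log2 differences were 0.93 (adjusted p = 0.0079) and 0.61 (adjusted p = 0.015). The interaction, -0.35, was not called (adjusted p = 0.13), and its 95% interval ran from -0.72 to 0.01, so a change in the size of the treatment difference was not resolved.

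From day 5 to day 9, miR-21-5p rose by 1.35 (log2, SE 0.12, adjusted p = 2.9e-07, limma) in treated cultures, all on slide 1, beside 37.8% of all tested miRNAs called higher. It fell by 0.68 (adjusted p = 0.00018) from day 9 to day 14 in treated cultures. In controls it rose by 0.31 (adjusted p = 0.041) from day 5 to day 9, beside 23.8% called higher, and fell by 0.32 (adjusted p = 0.035) from day 9 to day 14. The control rise lies wholly across slides, and its call was lost in 10 of 14 alternatives other than leaving out arrays, among them slide as a fixed term (0.42, adjusted p = 0.18). It was also not called without day 5 replicate 3 (0.15), without control day 9 replicate 1 (0.30) or without control day 9 replicate 2 (0.30). The control fall was not called without control day 9 replicate 2 (-0.31) or without control day 14 replicate 1 (-0.28).

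miR-199a-3p was near the detection limit where it was seen at all. The brighter probe had 90% to 100% of its spots above background on the 6 treated arrays and 0% to 10% on the 9 others. Its intensity was 17.7 to 25.7 in treated day 9, 20.4 to 29.0 in treated day 14, 5.86 to 8.22 in control day 9, 4.45 to 10.9 in control day 14 and 2.42 to 7.69 in day 5 cultures. The dimmer probe had 20% to 80% of its spots above background in treated cultures and 0% in all others. The scanner software's own detection call marked miR-199a-3p on 7 arrays, the 6 treated arrays and control day 14 replicate 1, and marked the other 3 miRNAs on all 15 arrays.

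The scaled miR-199a-3p signal (log2) was -3.62, -3.49 and -3.49 in treated day 9 and -3.44, -3.90 and -3.62 in treated day 14 cultures, and the other 9 arrays were set to the floor, -4.30. Against the control arrays' own detection limits it was at least 1.58-fold higher at day 9 and at least 1.498-fold higher at day 14, with measured means of -3.53 ± 0.07 (SD, n = 3) and -3.65 ± 0.23 in treated cultures. It was at least 1.31-fold higher in treated day 9 than in day 5 cultures, both on slide 1. The 2 treated groups overlapped and differed by -0.12. These bounds hold for the brighter probe and the scaling described above. Over the 4 scalings, with controls at the floor, the log2 differences were 0.46 to 0.76 at day 9 and 0.32 to 0.64 at day 14. After normexp background correction they were 0.23 at day 9 and 0.06 at day 14. On the dimmer probe, with its controls at the floor, they were 0.17 and 0.04.

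**Figure D3:**
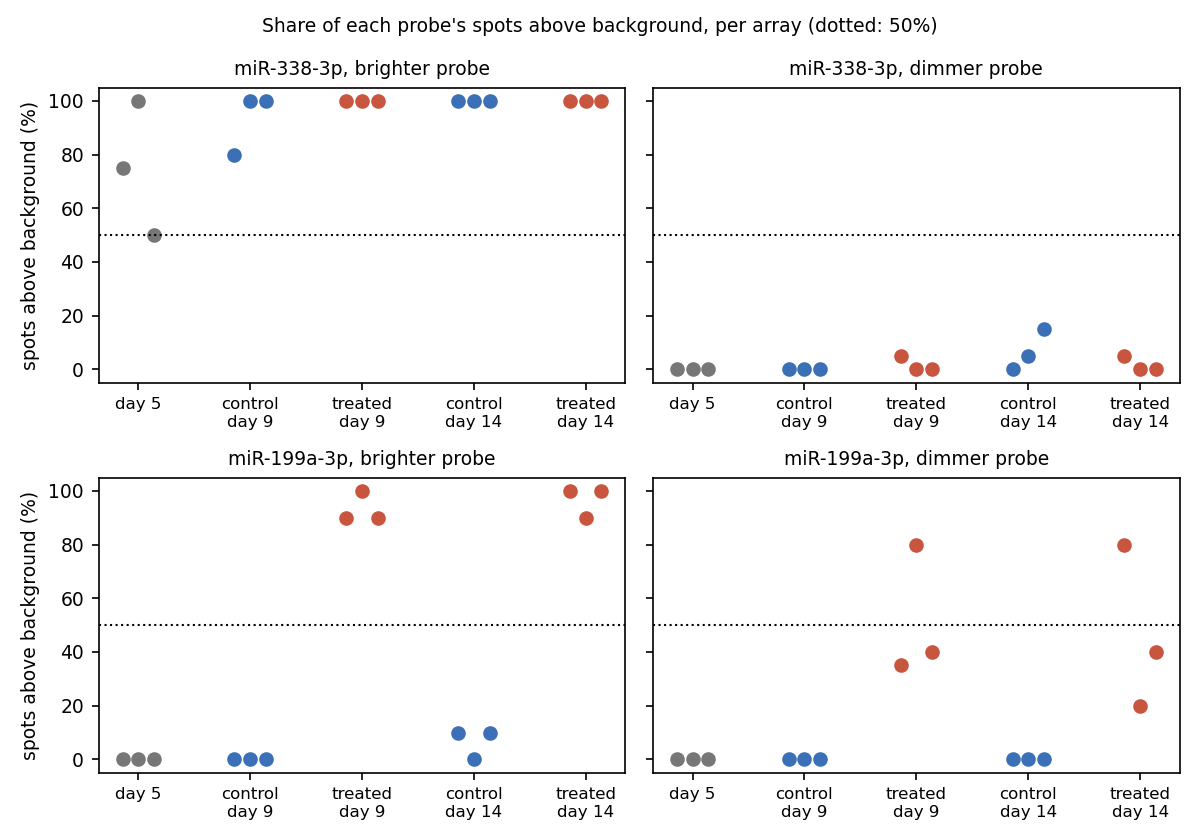
Percent of a probe's 20 spots above background (vertical axis) on each array, by group, for the brighter and the dimmer probe of miR-338-3p (top) and miR-199a-3p (bottom), with the 50% limit dotted. The brighter miR-199a-3p probe separates the 6 treated arrays (90% to 100%) from the other 9 (0% to 10%), and the dimmer miR-338-3p probe never passed 15%.

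Whether the differences, miR-199a-3p left aside, were more than a general shift was read against the median of all tested miRNAs, which depended on the scaling. The median treated-minus-control difference was 0.25 (log2) at day 9 and 0.23 at day 14, but -0.25 and -0.08 with the percentile over all mouse probes. With it the split of calls moved from 125 higher and 47 lower to 41 higher and 121 lower at day 9, and from 121 higher and 43 lower to 37 higher and 77 lower at day 14. Under median scaling it was 72 higher and 87 lower at day 9 and 76 higher and 65 lower at day 14, and after quantile normalization 64 higher and 89 lower, and 69 higher and 66 lower. Relative to that median, over the 4 scalings, miR-219-5p lay 0.99 to 1.36 higher at day 9 and 0.48 to 0.72 higher at day 14. miR-21-5p lay 0.71 to 1.06 and 0.39 to 0.69 higher. miR-199a-3p lay 0.49 to 0.75 and 0.32 to 0.51 higher, given only as a description. Its controls lie at the floor and it passed the filter only through treated cultures, so nothing is read from its values. miR-338-3p lay 0.15 to 0.37 above the median at day 9 and between -0.81 and -0.62 at day 14.

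**Figure D4:**
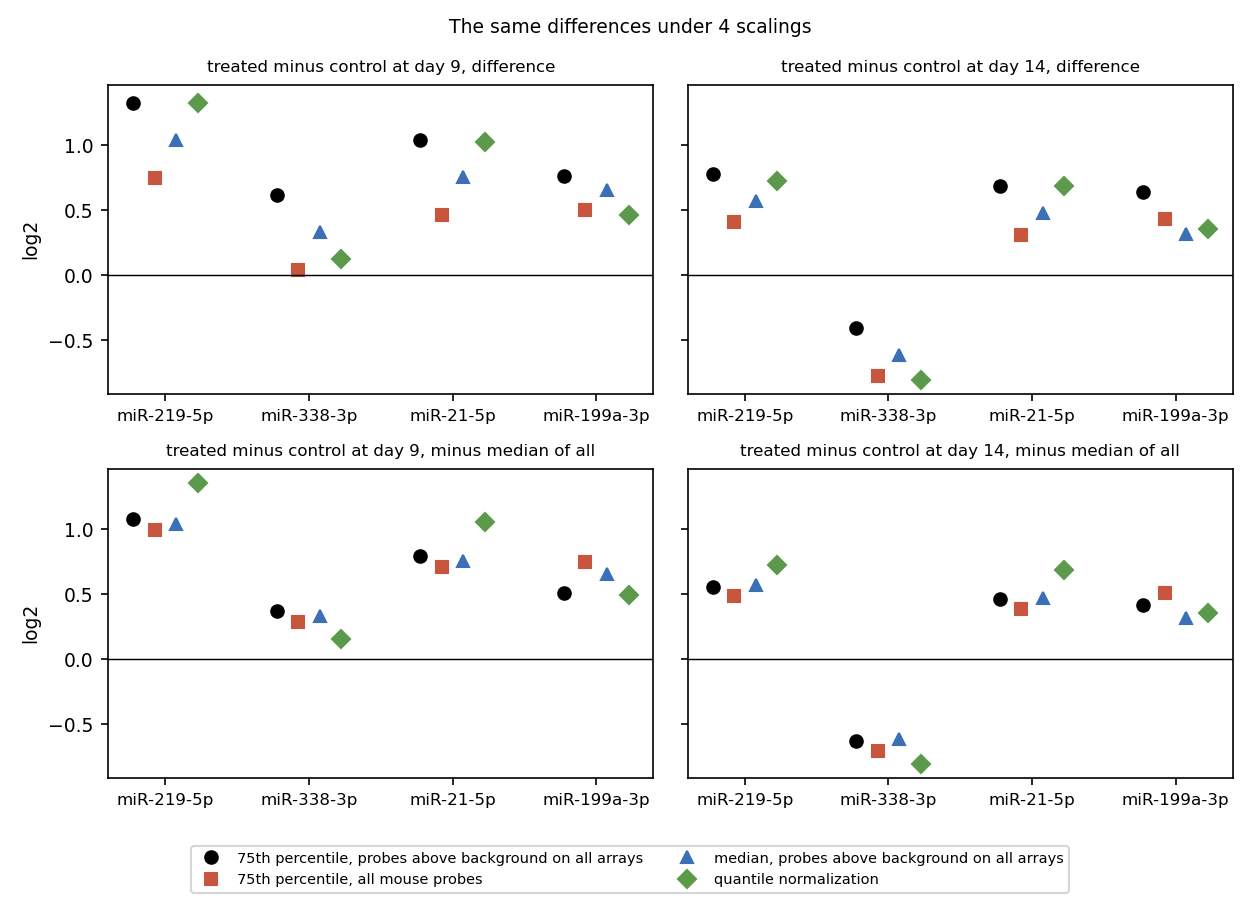
Treated minus control (log2, vertical axis) of the 4 miRNAs at day 9 (left) and day 14 (right) under 4 scalings, as such (top) and after subtracting the median of all tested miRNAs under the same scaling (bottom). miR-219-5p, miR-21-5p and miR-199a-3p lie above 0 in all 4 panels, the last with its controls at the floor and shown only as a description. miR-338-3p lies between 0.04 and 0.62 at day 9 and between -0.81 and -0.41 at day 14.

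The other arms of the same hairpins were mostly not well above background. Both 3p arms of miR-219, miR-21-3p, both arms of miR-214, the neighbour of miR-199a on the Dnm3os transcript, and both arms of miR-3065, which is made from the strand opposite miR-338, were above background on 0 of 15 arrays. miR-338-5p was above background on 2 arrays, 1 at day 5 and 1 in treated day 9 cultures. miR-199a-5p was above background on 3 arrays, 2 of treated day 9 and 1 of treated day 14 cultures, and miR-199b-5p on 4 arrays, 2 of treated day 9 and 2 of treated day 14. The 3 arrays of miR-199a-5p were among the 4 of miR-199b-5p. All were treated arrays, on which miR-199a-3p was also seen.

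Other miRNAs linked to oligodendrocytes were read from a list that also holds miR-219-5p and miR-338-3p. This list and those below were chosen with earlier results of these data known, so their counts are only a description. Of 9 oligodendrocyte-linked miRNAs on the array, 7 were above background on at least 1 array and 6 were tested, miR-32-5p only through treated day 9 cultures, where it is high. At day 9, 5 of the 6 were called higher in treated cultures and 0 lower, beside 40.7% of all tested miRNAs called higher. These 5 include miR-219-5p, miR-338-3p and miR-32-5p, and the call of miR-32-5p supports nothing. Of the others, miR-23a-3p and miR-7a-5p were called higher, and miR-138-5p was below background in both arms. The median of the 6 was 0.80, against 0.25 for all tested miRNAs. The medians of this list include miR-32-5p at both days, so nothing is read from them. Under the other 3 scalings 3 to 5 of the 6 were higher and 0 lower. At day 14, 2 were higher and 2 lower (median 0.12, against 0.23; 39.4% of all called higher and 14.0% lower). For the interaction, 6 of 6 were called downward under the main scaling and under median scaling. After quantile normalization 4 were, and with the percentile over all mouse probes 3. The 6 include miR-219-5p, miR-338-3p and miR-32-5p, and the values of miR-32-5p and miR-138-5p rest on the floor. Nothing is therefore read from these interaction counts. Of all tested miRNAs, 49 (16.0%) were called downward under the main scaling and 48 under median scaling. After quantile normalization 46 were, and with the percentile over all mouse probes 25.

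Among these, miR-23a-3p, which promotes myelin gene expression by lowering lamin B1, was 1.90 higher (log2, SE 0.07, adjusted p = 9.4e-11, limma) at day 9 and 1.51 higher (adjusted p = 1.7e-09) at day 14. miR-7a-5p was 0.98 higher at day 9 (adjusted p = 1.4e-05), and its day 14 difference was 0.24 (adjusted p = 0.12). miR-138-5p, which is found in maturing oligodendrocytes and in neurons, was below background in both arms at day 9 and 0.94 lower in treated cultures at day 14 (adjusted p = 2.0e-06). miR-32-5p was at least 1.30-fold higher at day 9 and below background in both arms at day 14. The interaction values of miR-138-5p and miR-32-5p rest on the floor. The summed scaled signal of the list was 3.46 to 4.10 at day 5, 5.93 to 6.16 in treated and 2.18 to 2.54 in control cultures at day 9, and 3.53 to 4.27 in treated and 2.52 to 2.68 in control cultures at day 14. Most of each sum is miR-219-5p itself, whose mean on the same linear scale was 3.22, 4.80, 1.92, 2.53 and 1.46 in that order.

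In the mesenchyme and smooth muscle list, miR-21-5p was the only tested miRNA called between treated and control cultures under the main scaling, miR-199a-3p left aside. Of the list's 13 miRNAs on the array, 6 were above background on at least 1 array. Of these 4 were tested, miR-199a-3p only through treated cultures, so a call of it supports nothing. miR-21-5p was higher in treated cultures at both days, beside 40.7% and 39.4% of all tested miRNAs called higher. The median of the 4 was 0.43 at day 9 and 0.32 at day 14, against 0.25 and 0.23 for all tested miRNAs. These list medians include miR-199a-3p, so nothing is read from them. miR-140-5p and miR-140-3p, which are best known from cartilage, were not called, at -0.21 (adjusted p = 0.13) and 0.10 (adjusted p = 0.40) at day 9, and the day 14 difference of miR-140-5p was -0.01 (adjusted p = 0.98). With the percentile over all mouse probes and after quantile normalization both miR-140 arms were called lower at day 9, and under median scaling miR-140-5p was; at day 14 miR-140-3p was called lower under median scaling and after quantile normalization. Both arms of miR-143 and of miR-145, which mark smooth muscle and fibroblasts, and both arms of miR-214 stayed below background on all 15 arrays. The summed scaled signal of the list was 0.73 to 0.98 at day 5, 1.89 to 2.23 in treated and 1.06 to 1.17 in control cultures at day 9, and 1.46 to 1.57 in treated and 0.94 to 1.04 in control cultures at day 14. Most of each sum is miR-21-5p itself, whose mean on the same linear scale was 0.60, 1.51, 0.73, 0.95 and 0.59 in that order.

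Other cell types were read from their own miRNAs. All 10 miRNAs of microglia, blood and endothelium (among them miR-142, miR-223 and miR-126) and all 7 of striated muscle (among them miR-1a and miR-206) were above background on 0 of 15 arrays. Of 13 miRNAs of epithelium and endoderm, 2 were above background on any array, and they went opposite ways. miR-375-3p, abundant in endocrine cells, was above background on the 6 treated arrays only. miR-216a-5p was so on 4 arrays, 1 at day 5 and 3 of control day 9, and on 0 treated arrays. The pluripotency list, with miR-302 and miR-290 family members, summed to 2.12 to 3.33 at day 5 and to no more than 0.60 in any later culture. The neuronal list summed to 4.54 to 5.14 at day 5, 9.23 to 9.73 in treated and 14.3 to 15.9 in control cultures at day 9, and 16.8 to 19.4 in treated and 25.2 to 29.7 in control cultures at day 14. Its 10 tested members went both ways. In treated cultures 3 were higher and 5 lower at day 9 (median -0.11), and 2 were higher and 7 lower at day 14 (median -0.63). Of all tested miRNAs, 40.7% were called higher and 15.3% lower at day 9, and 39.4% higher and 14.0% lower at day 14. Among the 10, miR-376a-3p passed the filter only through treated day 14 cultures, so its value there supports nothing. The part of these other cells in the 4 miRNAs' differences was not tested.

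The miRNAs whose pattern over the 15 arrays was most like each member differed between the 4. These correlations describe arrays that fall into 5 groups and share slides and scaling, and since the miRNAs were picked for a like pattern on the same arrays, their differences are given with no test. For miR-219-5p they were miR-101b-3p (r = 0.97), miR-34b-5p (r = 0.97) and miR-34c-5p (r = 0.96), and miR-34c-5p was 1.89 higher in treated cultures at both days (log2). For miR-338-3p they were miR-129-2-3p (r = 0.91), miR-132-3p (r = 0.87) and miR-384-5p (r = 0.82). miR-132-3p, which is induced by neuronal activity, was 2.26 higher (log2) in treated cultures at day 9 and 0.79 lower at day 14, and miR-129-2-3p was 1.31 higher at day 9 and 0.84 lower at day 14.

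For miR-21-5p the most similar miRNAs were miR-29c-3p (r = 0.96), miR-30a-3p (r = 0.94) and miR-152-3p (r = 0.94). miR-152-3p was 1.31 higher at day 9 and 1.62 higher at day 14 in treated cultures (log2). For miR-199a-3p they were miR-23a-3p (r = 0.97), miR-375-3p (r = 0.97) and miR-27a-3p (r = 0.94), with 9 of the 15 values of miR-199a-3p at the floor. miR-375-3p, like miR-199a-3p above background only in treated cultures, was at least 12.7-fold higher at day 9 and at least 8.04-fold higher at day 14. miR-27a-3p, made from the same cluster as miR-23a-3p, had a mean of -1.71 (log2) in treated and -4.17 in control cultures at day 9, and of -2.41 and -4.20 at day 14, with 2 of 3 control arrays above background at each day and the control means close to the floor. Between the members themselves, r was 0.86 for miR-21-5p and miR-199a-3p, 0.71 for miR-219-5p and miR-21-5p, and -0.05 for miR-219-5p and miR-338-3p.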

How the data were processed

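Total RNA was labelled with Cy3 and hybridised to 15 one-colour Agilent mouse miRNA arrays (release 18), per the labels' protocols. The deposited scanner tables hold spot signals as intensity, background-subtracted and not normalized between arrays, per the file headers (Feature Extraction 11.0.1.1). Other columns used, per the file headers, are flags (other) for spots above background and outlier spots. The submitters' processing notes list limma 3.20.9, with its role not given in the sources used here.

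For each of 2 probes per miRNA (20 spots each) the intensity was averaged over spots that were not outliers and scaled as described. It was then raised to a floor (-4.30, log2) and put on the log2 scale, and the brighter probe was kept. A probe counted as above background with at least 50% of its spots flagged so. A miRNA was tested (307 in all) if the 3 arrays of any group were all above background. All 5 groups were fitted in limma 3.58.1 (R 4.3.3; 10 residual and 3.07 prior degrees of freedom), two-sided, after a check on simulated data. At least folds use the dim arrays' lowest signal above background. The precision is limited by 3 arrays per group.

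The 4 miRNAs and all lists were chosen with earlier results of these data known. Named besides them were other arms of their hairpins, up to 4 called members per list and the 3 tested miRNAs of highest Pearson r with each. Alternatives were other scalings, floors, filters, probe summaries, slide and replicate terms, fewer groups or arrays, and the authors' deposited value table (intensity). In that table treated day 14 replicates 1 and 2 repeat each other (86.0% of values) and counted as 1. The normexp alternative used median spot signals in place of the planned mean signals. Sequences are from RefSeq.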

Additional observations from a re-analysis of the deposited data

Results flagged for a closer look

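The treatment difference changed between days for 2 of the 4 miRNAs by the test of the difference itself, which called 33.2% of all tested miRNAs. For miR-338-3p, treated minus control at day 14 less that at day 9 was -1.02 (log2, adjusted p = 9.9e-05, limma), a call lost after normexp background correction (adjusted p = 0.19). For miR-219-5p it was -0.54 (adjusted p = 0.010), where the treated excess became smaller and kept its direction; that call was lost with the percentile over all mouse probes (adjusted p = 0.13) and with no filter (adjusted p = 0.056).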

How the results depend on the processing

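No called member difference changed sign under any alternative run: 457 member values kept their side of the threshold, 35 lost the call and 8 gained it. Signals close to background limit what can be read for miR-338-3p and miR-199a-3p. Calls of miR-199a-3p, whose controls lie at the floor, are listed here for completeness and support nothing. With the percentile over all mouse probes, calls were lost for miR-338-3p at day 9 (0.037), miR-21-5p at day 14 (0.31) and the miR-219-5p interaction (-0.34). Median scaling gave calls for miR-338-3p (-0.43) and miR-199a-3p (-0.34) in treated day 14 against day 9. Quantile normalization lost miR-338-3p at day 9 (0.12) and miR-21-5p in control day 9 against day 5 (0.22), and gained miR-338-3p in treated day 14 against day 9 (-0.19). Normexp lost miR-338-3p at day 9 (0.20), at day 14 (-0.23), in the interaction (-0.43), in treated day 9 against day 5 (0.011) and in control day 14 against day 9 (0.22), miR-199a-3p at day 9 (0.23), at day 14 (0.059) and in treated day 9 against day 5 (0.022), and miR-21-5p in control day 9 against day 5 (0.18) and control day 14 against day 9 (-0.24). With no filter the miR-219-5p interaction (-0.54) was lost, and miR-21-5p in control day 9 against day 5 (0.31) and control day 14 against day 9 (-0.32), as with the 4 times higher floor, which had the same 2 values. The cause was not tested, other than that no filter adjusts over more miRNAs.

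The control day 9 against day 5 call of miR-21-5p was also lost with the mean over probes (0.19), slide as a fixed block (0.42), only the groups compared (0.31), the authors' value table (0.30), the dimmer probe (0.071) and the scanner software's total signal (0.11), and the control day 14 against day 9 call with the value table (-0.31). Slide as a fixed block lost miR-338-3p at day 9 (0.51). With only the groups compared, the miR-21-5p interaction (-0.35) and miR-338-3p in treated day 14 against day 9 (-0.22) were called. The dimmer probe lost miR-199a-3p at day 14 (0.040) and gained it in treated day 14 against day 9 (-0.13), and the software's total signal lost miR-338-3p in treated day 9 against day 5 (0.33). These last 2 alternatives were chosen after seeing the data.

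Counts of called miRNAs fell below the main count by a factor of more than 1.5 under normexp (80 at day 9, 65 at day 14, 34 for the interaction, 104 in treated day 9 against day 5, 130 in treated day 14 against day 9, 106 in control day 9 against day 5 and 97 in control day 14 against day 9), under the 4 times higher floor (98, 93, 134, 106 and 96 in the same order, leaving out the interaction and treated day 9 against day 5) and with slide as a fixed block (75 at day 9, 109 at day 14 and 100 in control day 9 against day 5). The main counts were 172, 164, 102, 181, 206, 181 and 168.

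Leaving out each array in turn gave 0.15 to 0.41 for miR-21-5p in control day 9 against day 5, -0.36 to -0.28 in control day 14 against day 9, -0.27 to -0.18 for miR-338-3p and -0.23 to 0.0039 for miR-199a-3p in treated day 14 against day 9, the last 2 called only without treated day 14 replicate 1. The other results kept their call in every such fit. In none of the 6 pairs of groups compared did all 3 same-numbered replicates correlate above 0.1 in their deviations (-0.22 to 0.21 for treated and control at day 9, -0.24 to -0.06 at day 14, and -0.55 to 0.52 between days), so the numbers were not taken to pair the arrays; with a replicate block 171 miRNAs were called at day 9 and 158 at day 14, and no member call changed. miR-338-3p and miR-199a-3p had no value with the 4 times higher floor, nor miR-338-3p on its dimmer probe.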
